A study of Homo sapiens with 9 samples.

Results

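Immediate early genes are switched on within minutes of a growth, stress or neuronal signal, without any new protein being made first. The set described here comprised 10 of them, out of 19794 protein-coding genes: EGR1, FOS, FOSB, JUN, JUNB, JUND, IER2, IER3, DUSP1 and MYC. They were named one by one, because EGR1 was among the genes with the strongest RNA polymerase II (RNAPII) peaks in control cells and the other 9 are well-known genes commonly grouped with it. EGR1 was thus selected on its own peak, and its control values are given only as a description. A peak was assigned to a gene when it overlapped the span of that gene, widened by 2 kb on each side, by at least 1 bp (GENCODE annotation, GRCh37 build).

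The polymerase was mapped by chromatin immunoprecipitation and sequencing (ChIP-seq) in HEK293, a line of human embryonic kidney cells, with an antibody that recognises all forms of RNAPII. The study asked what depletion or overproduction of RECQL5, a helicase found together with the polymerase, does to the distribution of RNAPII over genes. In the hairpin arm, HEK293 cells carried a lentiviral control vector (control shRNA, an empty vector by the methods) or one of 2 short hairpin RNAs (shRNA) against RECQL5, named shRNA5 and shRNA7. In the doxycycline arm, HEK293 T-REx cells, in which a doxycycline-inducible promoter drives full-length RECQL5 from a transfected plasmid, were grown at 0.0 or 1.0 ng/ml doxycycline. No hairpin is described for these T-REx cells. Peaks were called against non-specific IgG libraries, 1 for each condition of the hairpin arm and 1 untreated library that was taken to serve both doxycycline lists. None of the labels describes a stimulus or serum starvation.

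Each condition was 1 library, so no difference below has a replicate check and no test between conditions was possible. The 5 lists held between 5287 peaks (control shRNA) and 47060 peaks (no doxycycline). In the hairpin arm these are fewer peaks than the methods of the study describe. In proportion the shortfall is largest in the control list, at 5287 peaks, against 23698 upon shRNA5 and 32124 upon shRNA7. The presence and rank of peaks below, the shares of all genes and the folds against control therefore hold only for the lists as deposited. They contain the tags, that is the sequenced reads, inside peaks but no library totals. Between 842310 tags (control shRNA) and 6698771 tags (shRNA7) lay inside peaks. The methods of the study describe similar read numbers within an arm. Tag numbers were therefore set against each other only within an arm, and the lists of different arms only by rank. The intervals given are 95% Wilson intervals and cover counting error only.

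The immediate early genes are short, and their promoters are known for rapid recruitment of RNAPII. Signals reach them through the ERK, p38 and PKA kinases and through factors that are already bound to DNA. Serum response factor (SRF) with its ternary complex partners binds the CArG box, and CREB and ATF proteins bind the cyclic AMP response element (CRE). Their products include transcription factors of the EGR, FOS, JUN and MYC families, which carry the signal on, and inhibitors such as DUSP1, which shut it off.

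The 500 bases before the transcription start site (TSS) of the reference transcript were searched on both strands for such elements. A CArG box (2 C, then 6 A or T, then 2 G) was found at EGR1, FOS and FOSB, that is at 3 of 10 genes, against 2.40% of all 19794 promoters of that length. The CRE letters TGACGTCA were found at FOSB, JUND and DUSP1, again 3 of 10, against 2.90% of all promoters. EGR1 held 5 CArG boxes, at bases -418, -380, -364, -105 and -83 counted from the TSS, FOS held 1 at -314 and FOSB 1 at -274. Below are the stretches around these matches, read on the coding strand of each gene from the GRCh37 sequence, with the matched element in capitals. They are shown because the members differ in which of these elements they hold. The EGR1 stretches are chr5:137800730-137800833 and chr5:137801043-137801114 (plus strand), and the FOS stretch is chr14:75745197-75745246 (plus strand). Those of FOSB are chr19:45970960-45971009 (CArG box) and chr19:45970909-45970956 (CRE), both on the plus strand. JUND is shown at chr19:18392605-18392652 and DUSP1 at chr5:172198296-172198343, both on the minus strand.
EGR1, far cluster: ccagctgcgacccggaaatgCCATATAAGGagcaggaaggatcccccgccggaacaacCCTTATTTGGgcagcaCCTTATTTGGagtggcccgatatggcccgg
EGR1, near cluster: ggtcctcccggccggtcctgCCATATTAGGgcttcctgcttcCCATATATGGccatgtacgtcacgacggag
FOS, CArG box: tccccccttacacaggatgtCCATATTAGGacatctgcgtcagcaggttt
FOSB, CArG box: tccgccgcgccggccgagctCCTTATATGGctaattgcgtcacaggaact
FOSB, CRE: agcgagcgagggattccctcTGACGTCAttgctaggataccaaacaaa
JUND, CRE: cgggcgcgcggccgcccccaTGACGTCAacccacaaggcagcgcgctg
DUSP1, CRE: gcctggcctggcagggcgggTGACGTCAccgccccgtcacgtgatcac

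None of the 10 windows held TGACTCA or its reverse complement TGAGTCA, the AP-1 element to which FOS and JUN proteins bind, against 6.06% of all promoters. The GC box (GGGCGG or CCGCCC) was found at 8 of 10 genes (all but EGR1 and JUNB) and in 65.1% of all promoters. A TATA box, searched as TATAAA or TATATA, was found at FOS, FOSB, JUNB, MYC, IER2 and DUSP1, 6 of 10, against 21.4% of all promoters. A match is a string of letters, and the absence of one says only that these letters were not in this window.

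RNAPII peaks were found over nearly all of these genes in every list. In the control shRNA list 9 of 10 had a peak (interval of the share 59.6 to 98.2%), against 23.6% of all protein-coding genes, and MYC was the gene without one. All 10 had a peak upon shRNA5, where 54.3% of all genes had one, and upon shRNA7, where 62.1% had one. All 10 likewise had a peak without doxycycline (65.6% of all genes) and with it (55.1% of all genes). Members had transcripts of 1349 to 7184 bp, and among the 3746 protein-coding genes within that range a peak was found at 23.2% in the control list, at 44.8% and 50.4% with the RECQL5 hairpins, and at 53.6% and 44.7% in the untreated and treated T-REx lists. Several member peaks also touched a neighbouring gene. Without such peaks 7 members kept one in the control list, 6 upon shRNA5, 5 upon shRNA7 and 7 in each of the doxycycline lists. This count was not made over all genes. The 10 genes carried 13, 14 and 12 peaks in the hairpin lists and 20 and 17 in the doxycycline lists. Since EGR1 brought the set into view by its peak, its presence is not a finding. The interval above counts EGR1 and genes picked by name, so it is no test against the background. With only peaks of a significance score of at least 100, 7 members kept a control peak and 9 one upon shRNA5, and all 10 kept one in the other lists.

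The peaks of most members were placed high within their lists. Each gene was represented by its peak with the most tags, whose percentile among all peaks of the list was taken. With EGR1 left out, since it was selected on its peak, the median percentile over the members was 75.1 in the control list, against 56.6 over all genes with a peak. It was 80.4 upon shRNA5 against 73.3, and 96.7 upon shRNA7 against 81.8. Without doxycycline it was 98.4 against 84.9 and with doxycycline 98.9 against 79.6. The height upon shRNA5 depended on the peaks counted. At a fold enrichment of at least 10, with EGR1 kept, the members' median there was 64.2 rather than 86.1, and upon shRNA7 89.9 rather than 97.3. No median over all genes was made for that setting. The spread among members was wide in the control list, from FOSB at 15.2 and IER3 at 44.0 to JUN at 96.5 and EGR1 at 99.9. Upon shRNA5 MYC at 29.2, FOSB at 43.3, JUNB at 56.8 and FOS at 60.5 lay below the median of all genes, and upon shRNA7 MYC at 41.9 and FOSB at 46.1 did. By tags the spread was narrow in the doxycycline arm, where the lowest member was FOSB at 89.1 and 88.1 without and with the drug. Ranked by tags per kb of peak, the medians without EGR1 were 85.4, 95.9 and 97.0 in the hairpin lists, against 57.6, 74.5 and 79.3 over all genes with a peak. In the T-REx lists they were 99.1 and 98.1, against 86.6 and 83.5. By this ranking JUNB at 49.0 and JUND at 55.6 lay below the median of all genes in the control list. So did JUNB at 47.8 and MYC at 53.8 upon shRNA5, and MYC at 39.4 upon shRNA7. Without doxycycline MYC at 75.6 and FOSB at 77.8 did. Member peaks had a median length of 2320 bp in the control list (1900 bp over all peaks), 2160 bp upon shRNA5 (1830 bp) and 8190 bp upon shRNA7 (2020 bp). Without doxycycline the median was 1530 bp (622 bp over all peaks) and with it 1440 bp (689 bp).

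**Figure D1:**
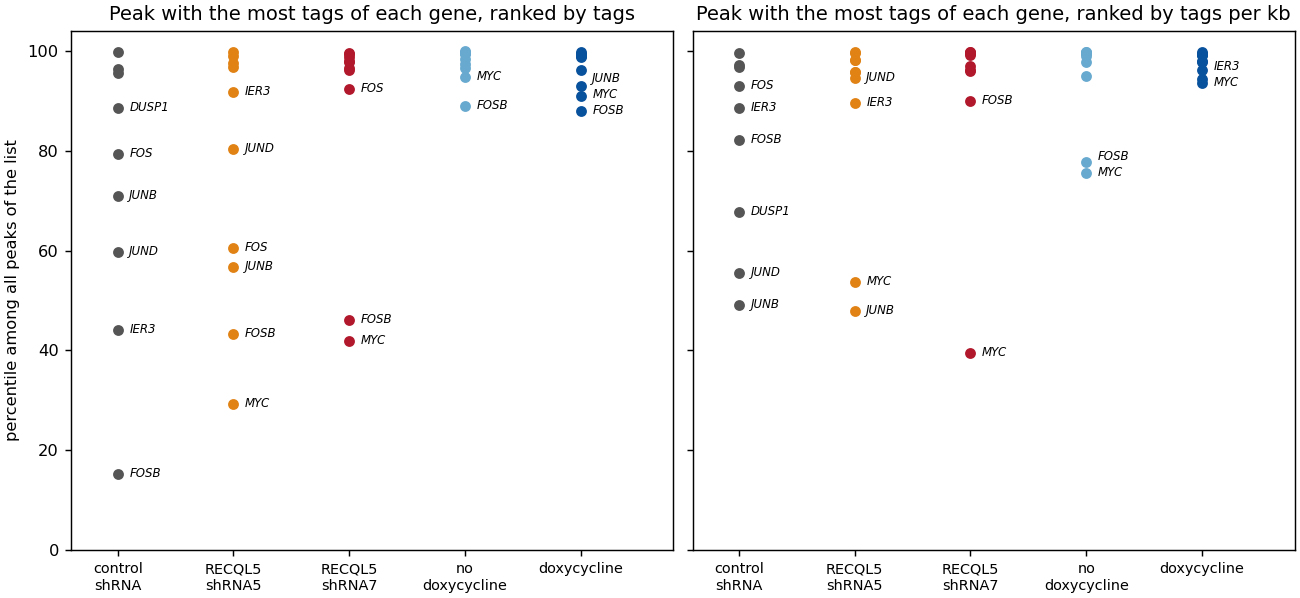
Percentile, among all peaks of its list, of the peak with the most tags of each immediate early gene, by tags (left) and by tags per kb (right), in each of the 5 RNAPII peak lists. Each point is 1 gene in 1 library and points at 95 or above carry no name. The control points spread from 15.2 to 99.9 by tags, and in the doxycycline arm all points lie at 88.1 or above by tags.

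EGR1, a zinc finger transcription factor induced by growth factors, lies at chr5:137801168-137804992 on the plus strand. It had a single peak in every list, which ran over the whole transcript and beyond both ends. That peak held 2763 tags with the control vector, 2480 upon shRNA5 and 3405 upon shRNA7, over 10813, 10094 and 12374 bp. These are 256, 246 and 275 tags per kb, close together in the 3 libraries of the hairpin arm. In the doxycycline arm EGR1 held 1420 tags without and 1361 tags with the drug, at 152 and 172 tags per kb. Among genes ordered by summed tags, EGR1 was number 9 of 4681 with a peak in the control list, 223 of 10748 upon shRNA5 and 361 of 12287 upon shRNA7. It was number 66 of 12979 without doxycycline and 175 of 10898 with it.

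The place of the summit, the point of highest tag pile-up, differed at EGR1 between the arms. It lay 3302, 3273 and 3266 bp past the TSS in the control, shRNA5 and shRNA7 lists, in the 3′ UTR of a transcript that spans 3825 bp. In the doxycycline arm it lay 92 bp past the TSS without the drug and 52 bp past it with the drug, in the 5′ UTR. Within an arm the summits thus lay close together. The arms differ in cell line, library depth and IgG background, and which of these goes with the summit cannot be told apart here.

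FOS and FOSB encode FOS proteins, which pair with JUN proteins to form AP-1. FOS lies at chr14:75745529-75748933 (plus strand) and held 300 tags (control), 204 tags (shRNA5) and 521 tags (shRNA7), at 63.7, 65.3 and 90.5 tags per kb. In the T-REx cells FOS held 272 tags without doxycycline and 387 with it, at 64.6 and 80.9 tags per kb. In summed tags FOS was thus lowest upon shRNA5 and highest upon shRNA7, whereas its density was close to equal in the control and shRNA5 lists. The peak was broken into 2 in the control and shRNA5 lists and into 3 without doxycycline, and was a single peak upon shRNA7 (5755 bp) and with doxycycline (4785 bp). The main summit stood 38 to 97 bp past the TSS in all 5 lists, and a smaller peak over the 3′ end had its summit 3753 bp past the TSS in the control list, 3194 bp upon shRNA5 and 3389 bp without doxycycline.

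FOSB, at chr19:45971253-45978437 (plus strand), had the fewest tags of the 9 members with a control peak. It held 58 tags (control), 77 tags (shRNA5) and 152 tags (shRNA7), at 60.9, 82.7 and 60.3 tags per kb. The T-REx lists gave it 129 tags without and 133 tags with the drug, at 35.8 and 53.1 tags per kb. In the control and shRNA5 lists its single peak sat at the start of a long transcript and covered 8.87% and 8.55% of it. Upon shRNA7 a weaker peak in an intron, with its summit 1796 bp past the TSS, brought the share to 26.4%. That peak was barely called, with a significance score of 52.67 and a false discovery rate of 16.6%, the highest of any member peak. In the T-REx lists further peaks lay inside the gene, with summits 1868 and 4490 bp past the TSS without doxycycline and 1790 and 3640 bp past it with the drug, and the shares were 44.5% and 28.1%. Without doxycycline the peak at 1868 bp, in an intron of the reference transcript, was the strongest of the gene (54 tags). FOSB has 6 annotated coding transcript starts, and places here are counted from that of the reference transcript. All FOSB peaks also touched the annotated span of ERCC1, which encodes a DNA repair nuclease subunit, so that their tags cannot be assigned to FOSB alone.

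JUN, JUNB and JUND encode the JUN proteins, the partners of FOS proteins in AP-1. JUN, at chr1:59242517-59249720 (minus strand), held 578 tags (control), 1313 tags (shRNA5) and 2374 tags (shRNA7), at 93.8, 164 and 264 tags per kb. With 1 peak in each list, the length grew from 6159 to 8014 and 8983 bp. The density at JUN was thus higher with both hairpins. JUN held 764 tags without the drug and 660 with it, at 116 and 107 tags per kb. The summit stood 31 to 37 bp past the TSS in 4 lists, and 3494 bp past it upon shRNA7, beyond the end of the 3257 bp reference transcript.

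JUNB, at chr19:12902300-12904129 (plus strand), held 140 tags (control), 165 tags (shRNA5) and 892 tags (shRNA7), at 47.9, 49.4 and 96.1 tags per kb. Doxycycline left JUNB at 182 tags against 158 without the drug, at 61.7 tags per kb in both. JUNB was thus close to its control value upon shRNA5 and well above it upon shRNA7. The shRNA7 peak was 9279 bp long and reached 6590 bp past the end of the transcript, where it also touched HOOK2 and PRDX2. Peaks at JUNB touched HOOK2, which encodes a microtubule adaptor, in the other 4 lists as well.

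JUND, at chr19:18390504-18392432 (minus strand), held 200 tags (control), 307 tags (shRNA5) and 959 tags (shRNA7), at 48.7, 69.0 and 92.1 tags per kb. The doxycycline lists gave JUND 417 tags without and 423 tags with the drug, at 68.4 and 79.2 tags per kb. In the control and shRNA5 lists JUND had 1 peak at each end, with the stronger summit 1644 and 1740 bp past the TSS in the 3′ UTR. In the other 3 lists a single peak covered the gene, with the summit within 44 bp of the TSS. The shRNA7 peak ran 6219 bp past the transcript end and touched IQCN.

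MYC, the growth-promoting transcription factor at chr8:128747680-128755197 (plus strand), was the least dense member in each list that held a peak for it. It had no peak in the control list, and a gene without a peak has no value there, so no fold was computed. Upon shRNA5 it held 106 tags in 2 peaks and upon shRNA7 131 tags in 2 peaks, at 44.0 and 43.2 tags per kb. In both lists 1 small peak lay at the TSS (45 and 48 tags) and 1 in the 3′ UTR (61 and 83 tags). In the doxycycline arm MYC held 181 and 177 tags in 4 peaks each without and with the drug, at 29.6 and 40.7 tags per kb, spread from the promoter to the 3′ UTR.

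IER2, whose product is a nuclear protein linked to transcription, lies at chr19:13261225-13265725 (plus strand). It held 586 tags (control), 806 tags (shRNA5) and 1808 tags (shRNA7), at 83.9, 98.7 and 200 tags per kb. IER2 held 606 tags without doxycycline and 572 tags with it, at 93.1 and 96.9 tags per kb. IER2 was the one member whose main summit lay away from the annotated TSS in all 5 lists, 2670 to 2685 bp past it, in the second exon ahead of the coding sequence. A separate small peak had its summit 16 and 80 bp past the TSS without and with doxycycline (30 and 23 tags). A peak at IER2 touched STX10, a neighbouring gene for a membrane fusion protein, in each list.

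IER3, at chr6:30710976-30712325 (minus strand), encodes a protein that modulates cell survival under stress. It held 85 tags (control), 349 tags (shRNA5) and 1286 tags (shRNA7), at 66.9, 68.0 and 148 tags per kb. The single peak was 1271, 5136 and 8684 bp long, and reached from the start of the gene to 3139 and 6653 bp past its end upon shRNA5 and shRNA7. The longer peaks ran into FLOT1, which encodes a membrane scaffold protein, whereas the control peak ended inside IER3. In the doxycycline arm IER3 held 135 and 153 tags at 53.7 and 62.3 tags per kb, in peaks of 2513 and 2456 bp that also touched FLOT1.

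DUSP1, at chr5:172195099-172198198 (minus strand), encodes a phosphatase that inactivates MAP kinases. It held 380 tags (control), 703 tags (shRNA5) and 1358 tags (shRNA7), at 58.0, 98.7 and 177 tags per kb. Its tags numbered 580 without and 569 with doxycycline, at 79.5 and 103 tags per kb. DUSP1 was thus denser with each RECQL5 hairpin than in the control list. In the control list the gene was split into a peak at the TSS (98 tags) and a longer peak whose summit lay in the 3′ UTR (282 tags), and upon shRNA5 and shRNA7 a single peak covered it with the summit 29 bp past and 14 bp before the TSS.

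**Figure D2:**
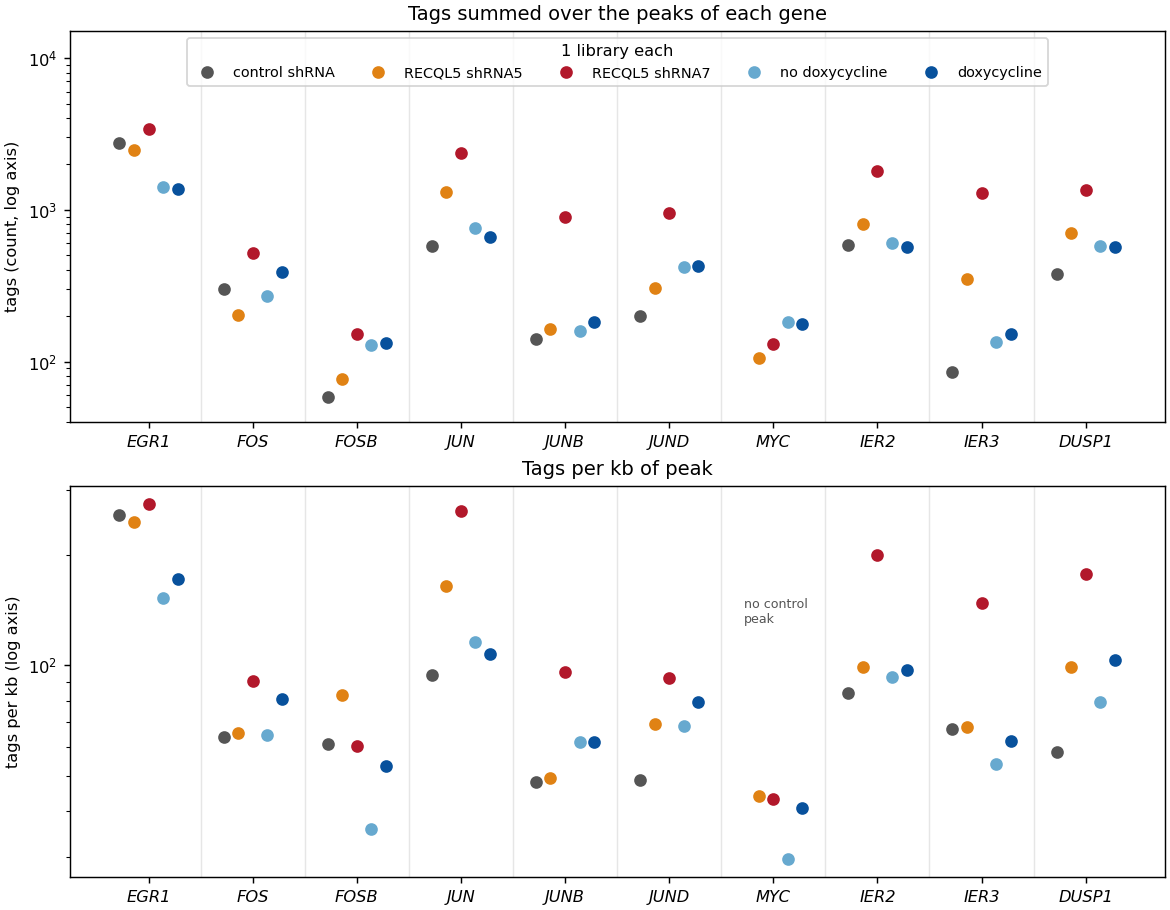
Tags summed over all peaks of each immediate early gene (top) and tags per kb of peak (bottom), both on log axes, in the 5 RNAPII peak lists, with 1 library per point and no error bars. The shRNA7 point is the highest of the 3 points of the hairpin arm for summed tags at every gene, and MYC has no control point because it had no control peak. Points of the hairpin and doxycycline arms are not on a common scale.

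**Figure D3:**
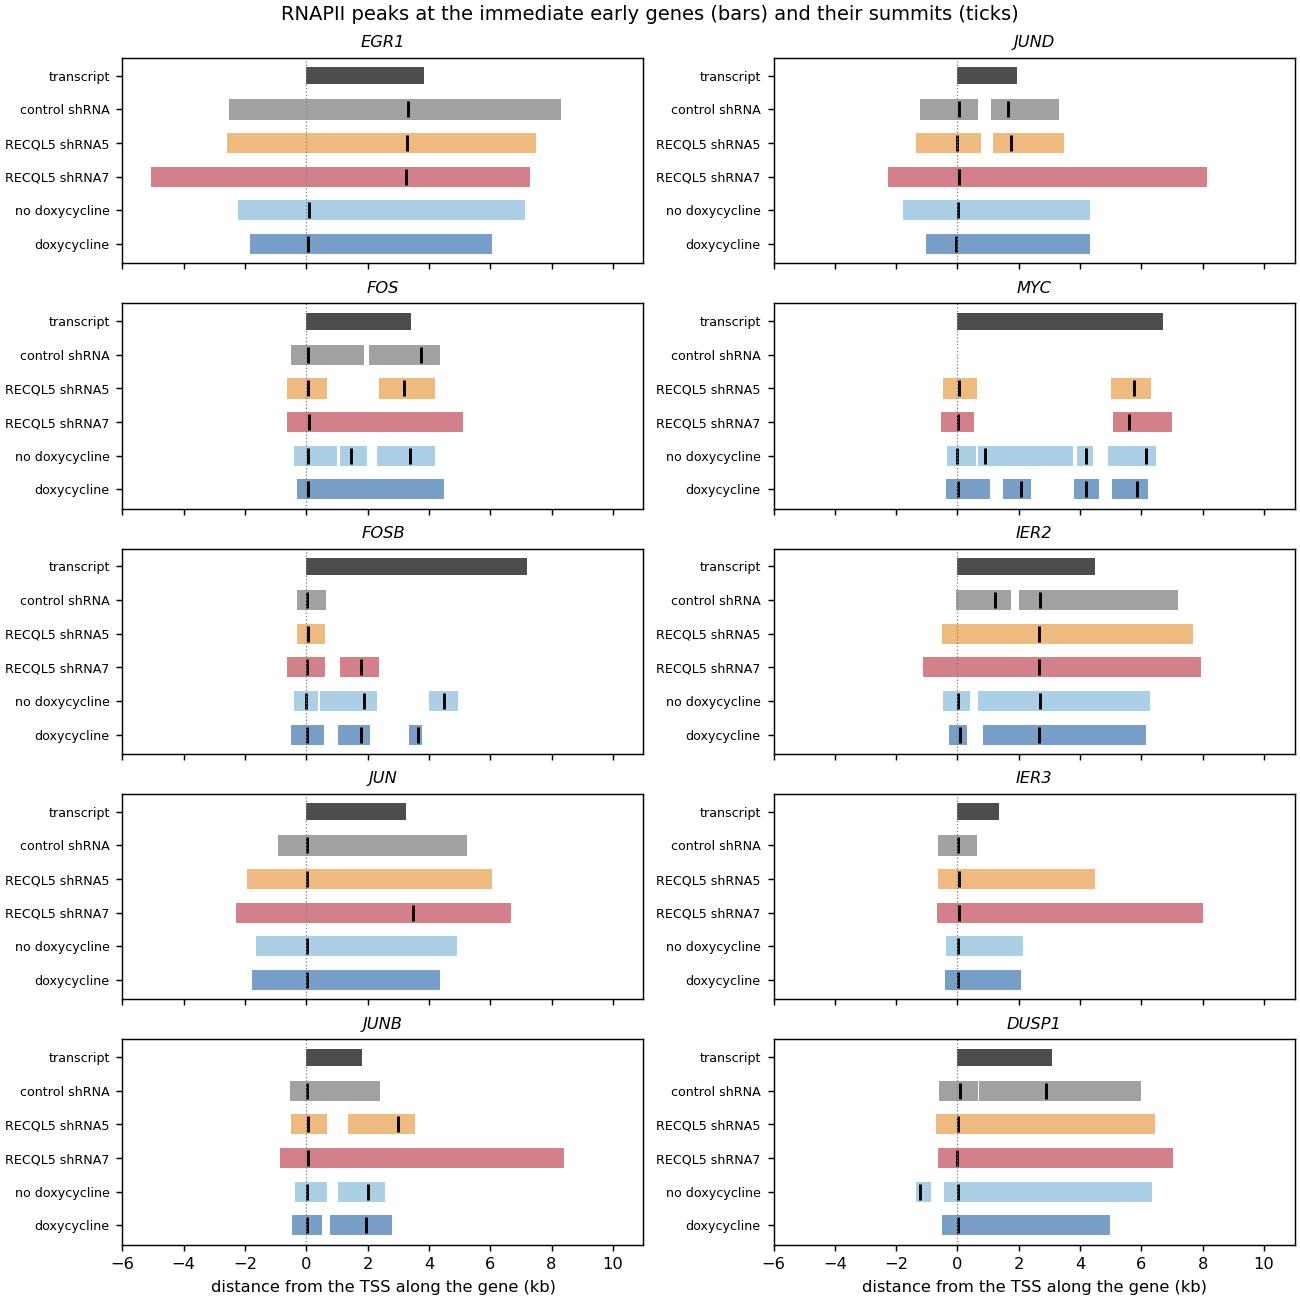
Position of every RNAPII peak assigned to the 10 immediate early genes (bars) and of its summit (ticks), in kb from the TSS along the direction of transcription, with the reference transcript above. Summits of EGR1 lie near 3.3 kb in the hairpin lists and near 0 in the doxycycline lists, and those of the main IER2 peak lie near 2.7 kb in all 5.

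In every list, each member with a peak had one over its TSS. The summit of the strongest peak lay within 500 bp of the TSS at 5 of 9 members in the control list (55.6%, interval 26.7 to 81.1%), against 45.3% of all genes with a peak. Upon shRNA5 it did so at 5 of 10 against 38.1%, and upon shRNA7 at 6 of 10 against 36.0%. Without doxycycline 7 of 10 members had it there against 63.1%, and with doxycycline 9 of 10 against 63.0%. The shares lay above the background in all 5 lists, and in all 5 the interval of the members included it. The members were picked by name, include EGR1 and are the same genes in each list. The interval is therefore no test against the background, and the 5 lists are not separate evidence. Members whose strongest peak lay elsewhere often had a weaker one there, so that 7, 8 and 7 members had some summit within 500 bp of the TSS in the hairpin lists, and all 10 did without and with doxycycline. This looser count was not made over all genes, and the shares above, of strongest peaks only, are no background for it. With the start of any coding transcript allowed, 9 members had the summit of the strongest peak within 500 bp of a start without doxycycline, rather than 7. The other lists kept their counts. That setting was likewise applied to the members only.

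A single peak that ran from before the TSS to past the end of the transcript was found at 3 control members. The number was 5 upon shRNA5 and 8 upon shRNA7, and in the doxycycline arm it was 5 without and 6 with the drug. This count was not made over all genes, so its rise cannot be read as particular to the members. The length under peaks rose over all genes upon shRNA7, by a median of 4.76-fold against 1.46-fold over the members. The median share of the transcript that lay under peaks was 95% over the 10 members in the control list, with MYC counted at 0, and 90.0% and 100% upon shRNA5 and shRNA7. Among genes of the same length range with a peak, the medians were 25.3%, 40.4% and 72.4%. Without and with doxycycline they were 97.3% and 100% for the members, against 19.1% and 14.9%. Most members thus lay largely under peaks, and FOSB was the least covered of the members with a peak in each of the 5 lists.

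Upon RECQL5 depletion with shRNA5, the members other than IER3 had lower folds in tags than the median gene. Among the 4656 genes with a peak in both lists, the median fold in summed tags was 3.27 (1.71 on the log2 scale), and 79.7% of genes were at least 2-fold higher than in the control list. Of the 9 members in both lists, 2 were at least 2-fold higher, IER3 at 4.11-fold (interval 3.24 to 5.20) and JUN at 2.27-fold (interval 2.06 to 2.51). The median over the 9 members was 1.38-fold. DUSP1 stood at 1.85-fold, JUND at 1.53-fold, IER2 at 1.38-fold, FOSB at 1.33-fold and JUNB at 1.18-fold. No member was 2-fold lower, against 0.0644% of all genes. Other ways to assign or filter peaks moved the fold of JUNB to 1.86 (peaks under 1 kb apart merged, or gene spans widened by 5 kb) or 0.471 (fold enrichment of at least 10), and that of FOSB to 2.48 (spans widened by 5 kb). The shRNA5 peak at IER3 also touched FLOT1, and without peaks that touch another coding gene JUN alone was at least 2-fold higher. Divided by the median of all genes, no member stayed 2-fold higher, 6 were 2-fold lower, and all but IER3 at 1.25 lay below 1, JUN at 0.694.

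In tags summed over all peaks, EGR1 and FOS stood below their control values upon shRNA5. EGR1 was at 0.898 of control (interval 0.850 to 0.948) and FOS at 0.680 (interval 0.569 to 0.812). A fold below 1 was found at 44 of the 4656 genes, and EGR1 and FOS sat at percentiles 0.601 and 0.215 of all genes. At FOS the length under peaks fell from 4711 to 3125 bp while the density was 63.7 and 65.3 tags per kb, and at EGR1 length and density were both slightly lower. Counting only peaks with a score of at least 100 put FOS at 1.14-fold, above control. EGR1 is a gene chosen for its control tags, which are also the denominator of its fold.

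Upon shRNA7 all 9 members held more tags than in the control list, as did 99.2% of all 4498 genes in both lists. At least 2-fold higher were 7 of 9 members, against 96.0% of all genes, and 0 of 9 were 2-fold lower, against 0.311%. The median was 3.57-fold over the members and 6.65-fold (2.73 on the log2 scale) over all genes. IER3 led at 15.1-fold (interval 12.2 to 18.8), or at 72.2-fold once peaks under 1 kb apart were merged, followed by JUNB at 6.37-fold, JUND at 4.79-fold and JUN at 4.11-fold. DUSP1 stood at 3.57-fold, IER2 at 3.09-fold and FOSB at 2.62-fold. The 2 members short of 2-fold were FOS at 1.74-fold (interval 1.51 to 2.0) and EGR1 at 1.23-fold (interval 1.17 to 1.30). With stricter peaks FOS stood at 2.91-fold (score of at least 100, or fold enrichment of at least 10) and FOSB at 1.57-fold (false discovery rate of at most 5%, or fold enrichment of at least 10). The shRNA7 peaks at IER3, JUNB, JUND, IER2 and FOSB also touched neighbouring genes, so those folds are not of these genes alone. Without peaks that touch another coding gene, 2 members, JUN and DUSP1, were at least 2-fold higher. Both hairpins were set against the same control library, so these folds share their denominators with those of shRNA5. Divided by the median of all genes, the members' median became 0.537, and IER3 alone stayed at least 2-fold higher, at 2.27, with the other 8 members below 1.

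A sum of tags grows with the length called as peak, so density and length were compared separately. The length under peaks had a median fold of 1.09 over the members upon shRNA5 and 2.66 over all genes, and of 1.46 and 4.76 upon shRNA7. The density had a median fold of 1.18 over the members and 1.25 over all genes upon shRNA5, and of 2.01 and 1.41 upon shRNA7. For shRNA7 the members thus stood below all genes in length and above them in density. Genes of the members' length had a median density fold of 1.72 there, and those of them in the top 10% by control tags 1.78, which lie closer to the members' 2.01. DUSP1 at 3.04-fold, JUN at 2.82-fold, IER2 at 2.38-fold, IER3 at 2.21-fold and JUNB at 2.01-fold were the densest relative to control, with percentiles of 99.2, 98.6, 96.1, 94.1 and 88.8 among all genes. EGR1 at 1.08-fold and FOSB at 0.990-fold were the least so. The deposited fold enrichment over local background did not follow these densities. From control to shRNA7 its highest value went from 43.07 to 36.12 at DUSP1 and from 60.23 to 50.51 at IER2. It went from 21.67 to 23.96 at IER3, from 24.4 to 28.49 at JUNB and from 44.33 to 62.17 at JUN. Upon shRNA5, JUN at 1.75-fold and DUSP1 at 1.70-fold led, at percentiles 97.7 and 97.

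Folds varied with the length of a gene and with its control tags. The control tags of the members ran from 58 at FOSB and 85 at IER3 to 2763 at EGR1, against a median of 121 over all genes with a peak. Among genes of the same length range the median fold in tags was 2.58 upon shRNA5 and 5.50 upon shRNA7. Among those of them in the top 10% by control tags (88 and 84 genes, at least 695 tags) it was 1.79 and 2.85. Of the members, only EGR1 held that many control tags. These sets were chosen after the values had been seen, and how far length and control level account for the members' folds was not tested.

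Upon RECQL5 overproduction the members hardly differed in summed tags. Of 10 members, 0 were at least 2-fold higher with doxycycline, against 6.22% of 10686 genes, and 0 were 2-fold lower, against 12.1%. Folds in tags ran from 0.864 at JUN (interval 0.778 to 0.959) to 1.42 at FOS (interval 1.22 to 1.66), with a median of 0.998 against 0.950 over all genes. For the other 8 members the counting interval included 1. In density the median was 1.16 over the members and 1.27 over all genes, with FOSB highest at 1.48-fold and JUN lowest at 0.922-fold. Density was higher with the drug at 8 of 10 members and at 86.0% of all genes. The length under peaks was lower, with a median fold of 0.891 over the members and 0.775 over all genes. In summed tags FOS thus was the one member above its level without the drug beyond counting error, and JUN the one below it. Among all genes these folds stood at percentiles 81.9 and 41.9, and counting error leaves out differences between libraries.

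**Figure D4:**
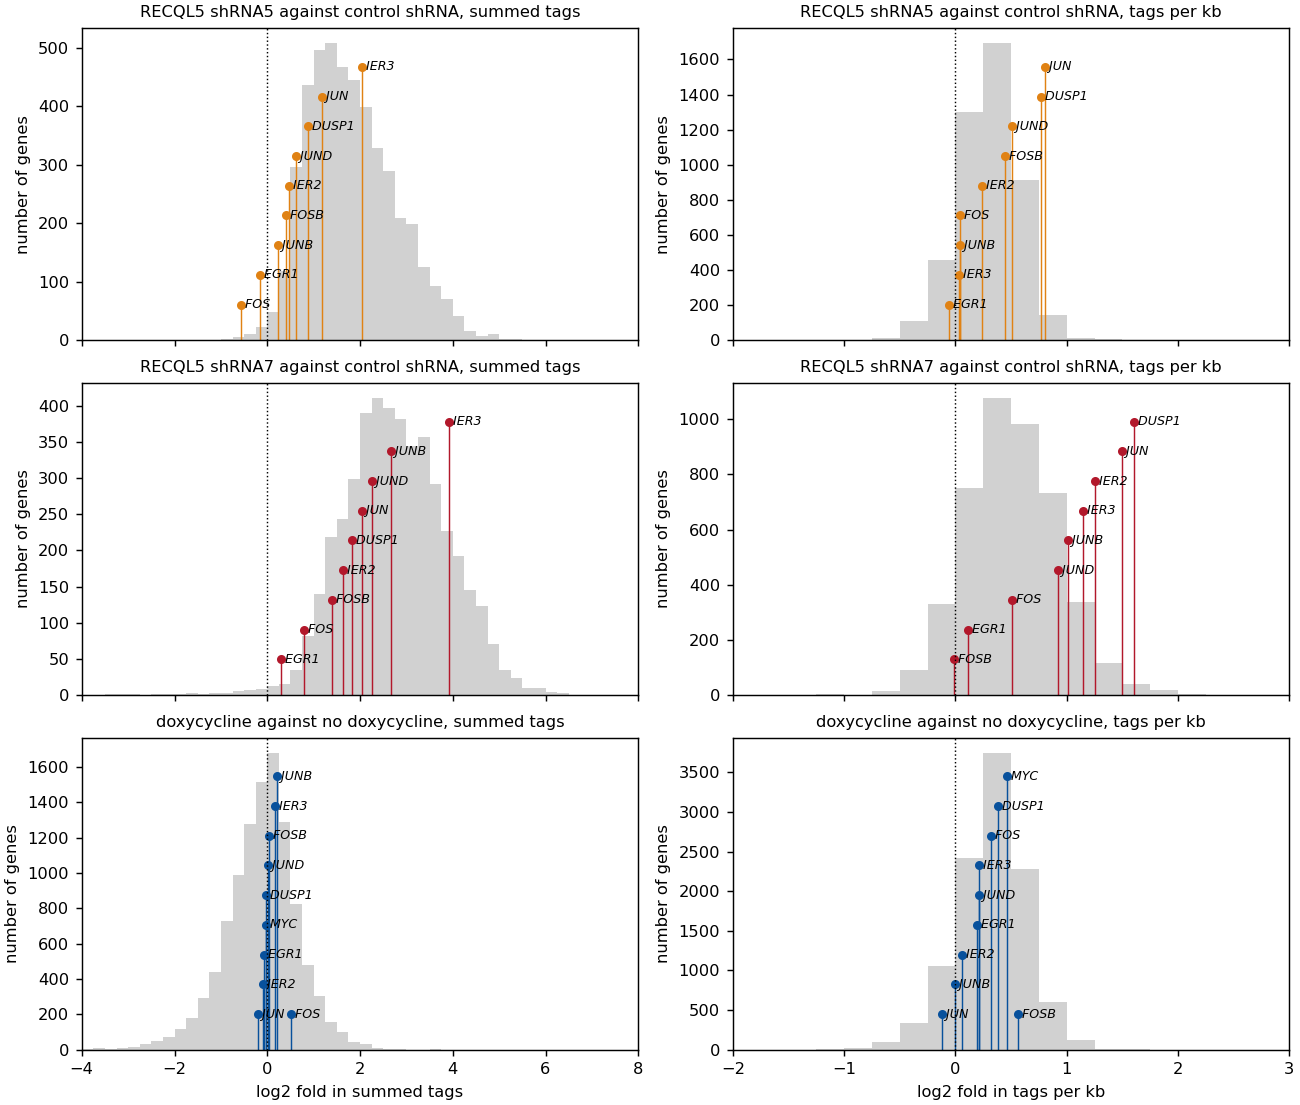
Log2 fold in summed tags (left) and in tags per kb (right) of the immediate early genes (named points at arbitrary heights) over the distribution of all genes with a peak in both lists (grey bars, number of genes per bin), for the 3 comparisons, with 1 library per condition. Upon shRNA5, FOS and EGR1 lie left of 0 in summed tags. Upon shRNA7 the density folds of DUSP1, JUN, IER2 and IER3 lie in the right part of the distribution, at percentiles 99.2, 98.6, 96.1 and 94.1. With doxycycline all members lie between 0.864 and 1.42-fold in tags.

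Other immediate early genes were taken from a list of 39. A peak was present at 18 of them in the control list, at 30 with shRNA5 and at 31 with shRNA7, where 23.6%, 54.3% and 62.1% of all genes had one. In the doxycycline arm 36 had one without and 34 with the drug (65.6% and 55.1% of all genes), and 18 had one in all 5 lists. DUSP2, DUSP4 and THBS1 had none in any list. Among the 16 further transcription factors the most control tags were found at KLF6, a zinc finger factor (318 tags), and SRF, which binds the CArG box (157 tags). KLF6 held 1196 and 1343 tags upon shRNA5 and shRNA7, and SRF 470 and 1071. Only 6 of these 16 factors had a control peak (23.6% of all genes), and EGR2, EGR3 and EGR4, the relatives of EGR1, were among those without one.

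Among the 17 feedback and signalling products, MCL1, an anti-apoptotic protein, held 1072 control tags and 1919 and 2718 tags upon shRNA5 and shRNA7. RHOB, a small GTPase, held 245, 579 and 790 tags. Of the 6 secreted and synaptic products, the matricellular proteins CCN1 and CCN2 had control peaks, with 294 and 189 tags, and held 505 and 276 tags upon shRNA5 and 827 and 552 upon shRNA7. Over the 18 genes of the list in both lists, 14 were at least 2-fold higher upon shRNA5, with a median of 2.66-fold, and 18 upon shRNA7, with a median of 6.21-fold. These counts lie near the shares of all genes, 79.7% and 96.0%. None of the 18 lay below control upon shRNA5, where the lowest was at 1.46-fold. With doxycycline 1 of 34 was at least 2-fold higher and 6 were 2-fold lower (6.22% and 12.1% of all genes), with a median of 0.887-fold.

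The kinases and promoter-binding factors that induce the immediate early genes were listed as a further 21 genes, of which 7 had a control peak. Upon shRNA5 and shRNA7 17 and 20 of them had one, and in the T-REx lists 18 and 17, against the same shares of all genes as above. The highest control tags among the 13 kinases were those of MAP2K1, which phosphorylates ERK (471 tags). It held 2581 tags upon shRNA5 and 3125 upon shRNA7. Among the 8 factors the highest control tags were those of ELK4, a partner of SRF (151 tags), and ATF2, a CRE-binding factor (124 tags). ELK4 held 326 and 621 tags upon shRNA5 and shRNA7, and ATF2 478 and 970. All 7 genes in both lists were at least 2-fold higher with each RECQL5 hairpin, as were 79.7% of all genes with shRNA5 and 96.0% with shRNA7. Their medians were 5.07-fold upon shRNA5 and 6.63-fold upon shRNA7, whereas their densities had medians of 1.07 and 1.16-fold. With doxycycline the median was 0.871-fold over 17 genes.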

How the data were processed

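The samples were 5 RNAPII and 4 IgG ChIP-seq libraries. The authors produced reads with CASAVA 1.8, aligned them to hg19 (GRCh37) with Bowtie 0.12.7, dropped reads in regions blacklisted by ENCODE and called peaks with MACS 1.4.2, each library separately. The deposited lists give each peak's tags as a count without normalization, a significance score made from the logarithm of the p-value, the fold enrichment (a ratio over local background) and the false discovery rate in percent. All peaks had a score of at least 50. The depth of the libraries is not in the lists.

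Tags of all peaks assigned to a gene were summed, divided by the length of those peaks for tags per kb, and compared by ratio. Summit positions were the deposited offsets counted from the peak start. The reference transcript was the one marked canonical, or otherwise that with the longest coding sequence (GENCODE 44 lifted to GRCh37). Python 3.11.15, pandas 2.3.3 and scipy 1.17.1 were used, and the scripts were tested on simulated peaks. The members and gene lists were chosen with earlier results of these data known. Named were all members, coding genes touched by their peaks, and of each further role the 2 genes with the most control tags, or genes counted in the sentence. One gene under this rule is not reported here. Alternatives were stricter peaks, other span widths, summits inside the widened span, peaks of 1 gene only, merged peaks and other scalings. A 1 kb TSS window, the start of any coding transcript, another rank and medians without EGR1 were also used. No column of per-sample values was left unused.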

Additional observations from a re-analysis of the deposited data

How the results depend on the processing

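No paired analysis was possible because each condition was 1 library, and for the same reason no replicate could be left out. Over the alternatives, 228 of 255 summary values stayed within 1.5 times (counts) or within the spread of the members (medians). Dividing folds in tags by the median of all genes changed most. It gave a members' median of 0.420 upon shRNA5 and 0.537 upon shRNA7, with 0 and 1 members at least 2-fold higher and 6 and 4 at least 2-fold lower. Dividing by the median of genes of the members' length (chosen after seeing the data) gave 0.532 and 0.650, with 0 and 1 higher and 3 and 3 lower. In density these scalings gave 0.944 and 0.872 upon shRNA5, 1.42 and 1.16 upon shRNA7, and 0.910 and 0.942 with doxycycline. By the first scaling all 9 members with a fold but IER3 lay below 1 upon both hairpins, and by the second all but IER3 upon shRNA5 and all but IER3 and JUNB upon shRNA7. Of the folds of at least 2, those that came to lie below 1 were, by the first and second scaling, JUN upon shRNA5 (0.694, 0.879) and, upon shRNA7, FOSB (0.394, 0.476), JUN (0.617, 0.747), JUND (0.721, 0.872), IER2 (0.464, 0.561) and DUSP1 (0.537, 0.650), and by the first alone JUNB upon shRNA7 (0.958). These follow from the division itself.

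Without peaks that touch another coding gene, 6 and 5 members had a peak upon shRNA5 and shRNA7, and 7 in each of the other lists. This count was made for the members only. The summit then lay at the TSS for 3 (control), 3 (shRNA5) and 2 (shRNA7) members. Upon shRNA5 and shRNA7 1 and 2 members were then at least 2-fold higher. At a score of at least 100, 7 members had a control peak, 3 control members had the summit at the TSS and 1 was 2-fold higher upon shRNA5. At a fold enrichment of at least 10, 1 member was 2-fold lower upon shRNA5 and 30 further immediate early and pathway genes had a peak there. The lists cannot show occupancy below their score limit, so the missing control peak at MYC gives no level. With EGR1 kept in, the median percentiles by tags were 79.4, 86.1 and 97.3 in the hairpin lists and 98.9 and 99.0 in the doxycycline lists (leaving it out was chosen after seeing the data).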
